A study of Mus musculus with 46 samples.

Results

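The genes described here are 8 transcripts that mark biliary and duct cells and the progenitor-like epithelial states related to them: Sox9, Epcam, Krt7, Krt19, Krt8, Krt18, Spp1 and Cftr. They were taken by gene symbol from a named list, and each symbol matched 1 identifier among the 55487 genes listed per library. The study, whose title asks how mitochondrial signals to the nucleus govern the identity and maturity of metabolic tissues, measured mouse RNA in 46 libraries of 11 groups. Islets labelled Tfam control or Tfam KO came from females (5 control, 4 KO) and males (3 control, 2 KO). Islets labelled Clec control or Clec KO, for the gene Clec16a, came from mice on RFD (4 control, 4 KO) or HFD (6 control, 5 KO). Livers were labelled control (6), Mfn DKO (4) or Tfam KO (3), and the letters AAV stand in their names. The labels do not write out RFD, HFD, DKO or AAV, and give no age, strain, Cre driver or vector promoter. The design text names both sexes, but no sex is given for the single Clec16a islet and liver libraries. Islets had been kept in culture overnight and livers had been flash frozen, per the labels' protocols. The labels call the libraries of a group biological replicates.

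In the liver, a network of bile ducts is lined by cholangiocytes, which carry Krt7 and Krt19, the adhesion molecule Epcam, the transcription factor Sox9, the secreted phosphoprotein Spp1 (osteopontin) and the chloride channel Cftr. In the pancreas, the same genes mark the ducts that run among acinar tissue and can adhere to isolated islets. Krt8 and Krt18 encode a type II and a type I keratin that pair into filaments. This pair is the main keratin of hepatocytes and is also found in islet cells and ducts. Sox9 and its partners mark duct cells, fetal progenitors and the intermediate cells that appear in injured liver, where Notch and YAP signalling are known to promote a biliary program. Because whole tissue was measured, more cells of a type and more RNA per cell cannot be told apart in any value below.

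Depth, as the total of deposited counts, was 55223041 to 83342809 for Tfam islet libraries, 16235173 to 55810879 for Clec16a islet libraries and 41961114 to 56894510 for livers. Levels are given as CPM (counts scaled to a common library total with TMM, the trimmed mean of M-values) for 1 gene across libraries, and as the authors' TPM, which divides by gene length, for different genes in 1 tissue. Tfam, Mfn1 and Mfn2 were lower in the libraries labelled for their loss. Tfam was at 37.7 to 44.5 CPM in control and 16.1 to 19.03 in KO islets, and at 53.6 to 65.6 in control and 13.2 to 16.0 in KO livers. Mfn1 was at 67.2 to 88.3 CPM in control and 15.7 to 25.3 in Mfn DKO livers, and Mfn2 at 112 to 191 and 32.3 to 45.1. Clec16a itself was not lower in the islets labelled KO (22.9 to 32.8 CPM) than in their controls (21.1 to 31.6), so it does not check that label. Of the 3 liver libraries labelled Tfam KO, replicate 2 stood apart, with a summed level of 10 hepatocyte markers of 23525 CPM against 62324 and 97368 in the other Tfam KO livers and 96398 to 135050 in control livers. The islet library labelled Clec16a KO on HFD, replicate 4, had 880 CPM summed over 15 genes of the integrated stress response, against 1861 to 2211 in the other KO libraries on HFD and 912 to 1115 in their controls. Beta-cell markers dominated the islets and hepatocyte markers the livers: 10 beta-cell genes summed to 105730 CPM or more in each islet library, and 10 hepatocyte genes to 245 or less.

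In control libraries the genes fell into a highly expressed set that differed between organs and a rare set. The Clec16a control islets are 6 libraries on HFD and 4 on RFD, pooled, and the control livers have AAV in their names. Per gene length, control livers had Krt18 (median 195 TPM, range 142 to 211) and Krt8 (194, 155 to 235) far above Spp1 (46.3, 32.0 to 62.3). Below these came Krt19 (2.14, 0.978 to 25.4), Epcam (1.92, 1.53 to 4.13), Sox9 (1.35, 1.12 to 1.85), Krt7 (0.414, 0.198 to 0.797) and Cftr (0.0264, 0 to 0.0775). The ranges of Krt18 and Krt8 overlapped, as did those of Krt19, Epcam and Sox9, so the order within each of these sets is not fixed by the data. Tfam control islets carried Epcam (187 TPM, 161 to 202), Krt18 (165, 151 to 210), Krt8 (131, 112 to 162) and Krt7 (70.4, 61.0 to 83.8) at high levels, with the ranges of Epcam and Krt18, and of Krt18 and Krt8, overlapping. Spp1 was at 24.0 TPM (17.0 to 57.2), and Sox9 (0.833, 0.499 to 1.32), Krt19 (0.802, 0.282 to 6.78) and Cftr (0.0944, 0.0298 to 0.200) were rare. Clec16a control islets had the same high set, at 166 TPM for Krt18 (108 to 225), 120 for Epcam (99.8 to 142), 92.9 for Krt7 (59.3 to 105) and 77.0 for Krt8 (62.5 to 97.4). There, too, neighbouring ranges overlapped. Spp1 (26.7, 20.4 to 33.9), Krt19 (1.71, 0.674 to 9.37), Sox9 (0.476, 0.324 to 1.03) and Cftr (0.0145, 0 to 0.154) followed. Epcam and Krt7 were thus abundant in islets, where Krt19, Sox9 and Cftr were near the bottom of the order, and both were rare in liver.

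**Figure D1:**
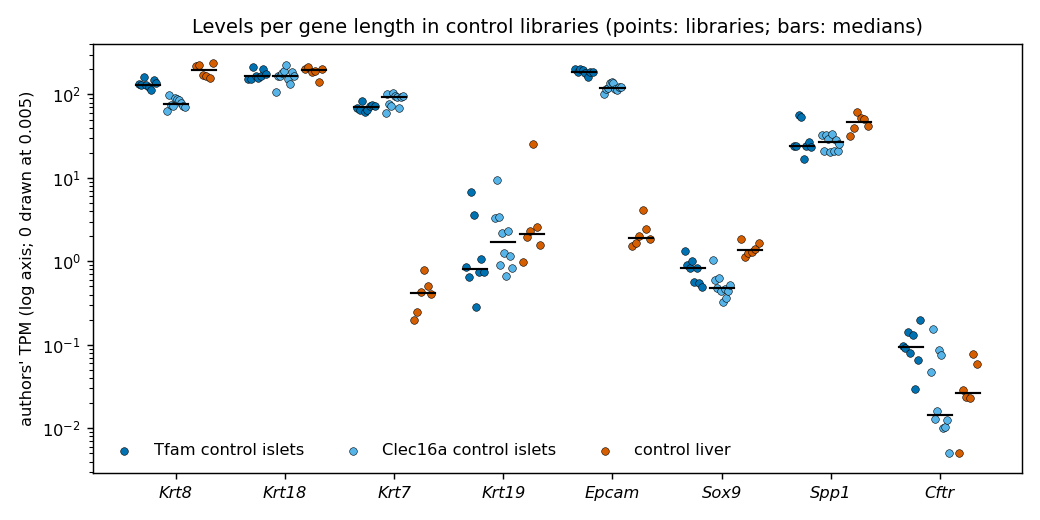
Level of each gene in control libraries as the authors' TPM (log axis, a value of 0 drawn at 0.005), with 1 point per library and a bar at the median; 8 Tfam control islet, 10 Clec16a control islet and 6 control liver libraries. Krt8 and Krt18 lie between 62.5 and 235 TPM in each tissue, whereas Epcam and Krt7 are at 59.3 TPM or more in islets and at 4.13 or less in liver.

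The keratin pair of hepatocytes was higher in Tfam KO livers than in controls. Each value below is from edgeR's quasi-likelihood test fitted across all genes, with Benjamini-Hochberg adjustment over all genes tested, and genes whose adjusted p did not exceed 0.05 are named called. Krt18 rose from 127 ± 21.3 CPM (SD, n = 6) in control livers to 319 ± 215 (n = 3) in Tfam KO livers, a log2 change of 1.32 (SE 0.29, adjusted p = 0.0061). Krt8 rose from 179 ± 40.3 to 412 ± 279 CPM, a log2 change of 1.196 (SE 0.31, adjusted p = 0.0128). These were 2 of the 8 genes, both higher, against 29.3% of the 17024 genes tested (18.1% higher, 11.3% lower), so their share is near the background. The 8 genes had a median log2 change of 0.90, against 0.03 over all genes tested. Without replicate 2, the library that stood apart, 1 of the 8 was called (8.51% of all genes higher, 5.95% lower), and the median was 0.072 against 0.028.

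Krt18 was at 145, 142, 125, 122, 88.9 and 143 CPM in the 6 control livers and at 236, 564 and 158 in the 3 Tfam KO livers. All 3 KO livers lay above all controls. Krt8 was at 214, 207, 154, 144, 133 and 226 CPM in control livers and at 319, 725 and 192 in Tfam KO livers, so the third KO library lay inside the control range. The highest value of both genes was in replicate 2, the library with few hepatocyte transcripts. In the fit without it, Krt18 was called at a log2 change of 0.64 (adjusted p = 0.0345), while Krt8 had 0.52 (adjusted p = 0.138). Markers of other cells in Tfam KO livers were called higher in 0 of 9 endothelial and 1 of 13 macrophage genes. Of 11 stellate cell and fibroblast genes 2 were higher and 1 was lower. Of 10 hepatocyte genes 2 were lower and none higher, and 13 of 15 stress response genes were higher. Without replicate 2 the counts were 0 endothelial, 0 macrophage and 2 stellate cell genes higher, 1 hepatocyte gene higher and 3 lower, and 12 stress response genes higher. With limma on log2 of the authors' CPM and TPM, 3 and 8 endothelial, 1 and 2 macrophage and 6 and 8 stellate cell genes were called higher. On those scales 39.4% and 50.9% of all genes were called higher. The part of these cells and of the stress response in the keratin values was not tested.

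Krt8 and Krt18 are neighbours on chromosome 15 (Krt8 at 101996698 to 102004482 on the minus strand, Krt18 at 102028180 to 102032027 on the plus strand, GRCm38, identifiers ENSMUSG00000049382 and ENSMUSG00000023043) and are transcribed away from each other. Their levels moved together over the 13 livers (Pearson r = 0.98 on log2 CPM, and 0.96 about the group means), a description over libraries that share tissue and design. Over the 14 Tfam islets r was 0.84, and over the 19 Clec16a islets 0.31. Their promoters are shown because the pair moved together. The RefSeq windows on GRCm38.p6, limited to bases outside annotated exons, are on chr15:102004483-102004592 (minus strand) for Krt8 and chr15:102027966-102028179 (plus strand) for Krt18, in lower case 5′ to 3′.
Krt8: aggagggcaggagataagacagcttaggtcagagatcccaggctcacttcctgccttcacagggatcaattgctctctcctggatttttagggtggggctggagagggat
Krt18: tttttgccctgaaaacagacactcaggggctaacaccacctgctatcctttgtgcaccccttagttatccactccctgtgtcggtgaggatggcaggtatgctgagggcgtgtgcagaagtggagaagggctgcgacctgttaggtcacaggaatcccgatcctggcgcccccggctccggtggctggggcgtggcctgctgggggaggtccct
Searched on both strands, the 9 motifs AP-1 (TGANTCA), ATF4 response element (TGATGNAA), RBPJ (TGGGAA), TEAD (GGAATG), SOX (AACAAT), the TATA letters TATAAA, E-box (CACGTG), GC box (GGGCGG) and the CCAAT box had no match in these printed bases, and therefore no capitals mark them. The whole window of 250 bases before the Krt8 start holds the RBPJ letters once, from -134 to -129, outside the printed bases, and that of Krt18 holds none of the 9. Of 32851 promoter windows of 250 bases, 6.75% hold the AP-1 letters, 3.45% the ATF4 letters, 21.6% the RBPJ letters, 12.6% the TEAD letters and 9.42% the SOX letters. These shares are for whole windows and not for the shorter stretches printed, and a stretch without these letters says nothing about the factors.

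Among control livers the keratin pair also took separate ranges by the level of Xist, the transcript of the inactive X chromosome, which is detected in female tissue. Xist was at 377 to 789 CPM in 7 livers (3 of 6 control, 2 of 4 Mfn DKO, 2 of 3 Tfam KO) and at 0.698 or less in the other 6. In controls, Krt8 was at 207 to 226 CPM in the 3 livers without Xist and at 133 to 154 in the 3 with it, and Krt18 at 142 to 145 and 88.9 to 125. Both pairs of ranges were apart. Spp1 went the other way, at 26.3 to 33.9 CPM without Xist and 36.4 to 47.5 with it, and Epcam and Krt19 did too (1.67 to 1.99 against 2.03 to 4.07 CPM for Epcam). Ranges of Sox9, Krt7 and Cftr overlapped. This split of 3 against 3 control livers was made after seeing the data, and no difference between the classes was tested. The share of all genes with ranges apart in the same way was not counted, so whether the separation is particular to these genes is not known. Within each Xist class, all 3 Tfam KO livers lay above all controls for both Krt8 and Krt18. The ratio of mean Krt8 was 1.48 for the 1 KO liver without Xist and 3.19 for the 2 with it. Those 2 were replicate 2, the library that stood apart, at 725 CPM, and replicate 3 at 192 CPM. The ratio of 3.19 thus rests on replicate 2, and these ratios do not compare the Xist classes. With the Xist level as a covariate, Krt18 had a log2 change of 1.32 (adjusted p = 0.0098) and Krt8 of 1.26 (adjusted p = 0.0156).

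**Figure D2:**
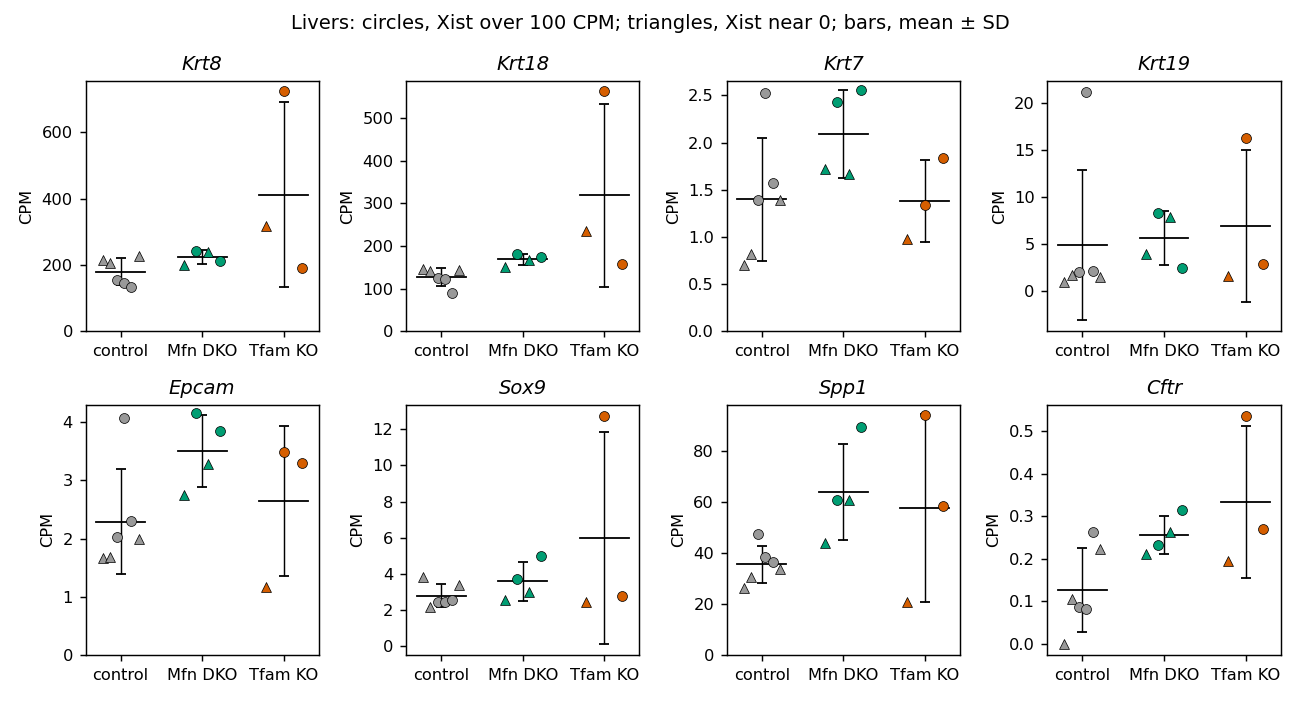
TMM-scaled CPM of the 8 genes in 6 control, 4 Mfn DKO and 3 Tfam KO livers, 1 point per library, with the mean and SD as lines; circles mark livers with Xist over 100 CPM and triangles those with Xist near 0. The Tfam KO point at 725 CPM for Krt8, 564 for Krt18 and 12.7 for Sox9 is replicate 2, and the control point at 21.2 for Krt19 is replicate 4.

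In Mfn DKO livers, where both mitofusin transcripts were low, none of the 8 genes passed edgeR's test, against 9.87% of all genes tested (5.23% higher, 4.64% lower). The DESeq2 Wald test called none either, and 1 of the 8 had an unadjusted p under 0.05, Spp1 (0.0206). All 8 fitted changes were positive (median log2 change 0.48, against 0.02 over all genes, and 0.83 without control replicate 4). Spp1 was at 44.1, 60.9, 60.9 and 89.5 CPM in Mfn DKO livers and at 26.3, 30.7, 47.5, 38.5, 36.4 and 33.9 in control livers, a log2 change of 0.84 (SE 0.32, adjusted p = 0.109). The lowest DKO liver lay inside the control range. Spp1 is also made by macrophages, and all 13 macrophage markers tested had positive changes there, with 1 called (2 with limma on the authors' CPM and 5 on TPM). Their summed level was 760 to 1493 CPM in DKO and 572 to 1080.5 in control livers, and the sums overlap. Of 11 stellate cell and fibroblast markers, 10 had positive changes and 2 were called higher (5 with limma on the authors' CPM and 7 on TPM), with sums of 366 to 436 CPM in DKO and 295 to 378 in control livers. Over all genes, limma called 9.46% higher on CPM and 14% on TPM. The part of either cell type in the Spp1 values was not tested. Within each Xist class all DKO livers lay above all controls for Spp1, with ratios of means of 1.73 without Xist and 1.84 with it. Spp1 passed with the Xist level as a covariate (adjusted p = 0.0416), in a fit of the 2 groups alone (adjusted p = 0.00889) and in a fit without Tfam KO replicate 2 (adjusted p = 0.0419). Its level in Tfam KO livers was 20.7, 94.3 and 58.4 CPM, with the first below all controls and the others above them (log2 change 0.69, SE 0.35, adjusted p = 0.147). Without that first library the change was 1.09 (adjusted p = 0.0149), and without replicate 2 it was 0.15 (adjusted p = 0.808).

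Neither keratin of the pair passed the test in Mfn DKO livers. Krt18 was at 151, 182, 167 and 174 CPM there, above all 6 controls (log2 change 0.40, SE 0.27, adjusted p = 0.358). It passed in a fit of those 2 groups alone (adjusted p = 0.0393). The share of all genes without overlap between those groups is not given here. Krt8 was at 199, 242, 239.8 and 212 CPM (log2 change 0.31, SE 0.29, adjusted p = 0.506). Epcam was at 2.76 to 4.15 CPM in DKO and 1.67 to 4.07 in control livers (0.61, SE 0.32, adjusted p = 0.237), and Krt7 at 1.66 to 2.555 and 0.697 to 2.52 (0.57, SE 0.34, adjusted p = 0.290). Tested directly against each other, Tfam KO and Mfn DKO livers differed in none of the 8 genes (0.294% of all genes were called, 0.106% higher and 0.188% lower, 3480 had an unadjusted p under 0.05, and the DESeq2 Wald test called 1087 genes and none of these 8). Krt18 came nearest, with a log2 difference of 0.92 (SE 0.32, adjusted p = 0.144). Without Tfam KO replicate 3, the lowest of the Tfam KO livers for both keratins, Krt18 (1.24, adjusted p = 0.0071) and Krt8 (1.22, adjusted p = 0.0102) were called, with 4204 of all genes. Without replicate 2, the highest for both, Krt18 was at 0.24 (adjusted p = 0.670) and Krt8 at 0.20 (adjusted p = 0.782). The median of the 8 genes then went from 0.34 to -0.51.

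Sox9, the transcription factor of duct and progenitor cells (ENSMUSG00000000567, chromosome 11, 112782224 to 112787760, plus strand), was at 3.81, 2.16, 2.43, 2.42, 2.53 and 3.36 CPM in control livers and at 2.45, 12.7 and 2.76 in Tfam KO livers. Its fitted log2 change of 1.10 (SE 0.43, adjusted p = 0.0694) rested on replicate 2, since 2 of 3 KO livers lay inside the control range. Without that library the value was -0.09 (adjusted p = 0.865), whereas without replicate 1 it was 1.47 (adjusted p = 0.0295) and without replicate 3 it was 1.42 (adjusted p = 0.0180). In Mfn DKO livers Sox9 was at 2.57, 3.71, 3.001 and 5.005 CPM (log2 change 0.36, SE 0.40, adjusted p = 0.594). In Clec16a islets on RFD it was at 0.956, 0.829, 0.836 and 0.933 CPM in controls and at 1.62, 1.39, 1.46 and 1.45 in KO. These groups did not overlap, at 19 to 81 counts per library, and the share of all genes without overlap there is not given here. The change of 0.73 (SE 0.33, adjusted p = 0.188) did not pass. On HFD the KO libraries had 0.917 to 1.98 CPM and the controls 0.619 to 2.38 (0.31, SE 0.28, adjusted p = 0.569).

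Krt19, the keratin most used to mark ducts (ENSMUSG00000020911, chromosome 11, 100140810 to 100148665, minus strand), had single libraries far above the others of their group. In liver it was at 0.906, 1.69, 2.01, 21.2, 2.06 and 1.44 CPM in controls, at 3.90, 8.24, 7.83 and 2.45 in Mfn DKO and at 1.54, 16.3 and 2.87 in Tfam KO. A single control library, replicate 4, carried the high control value, and it also had the highest control Epcam (4.07 CPM) and Krt7 (2.52). With it, the log2 changes were 0.18 in Mfn DKO (adjusted p = 0.916) and 0.48 in Tfam KO (adjusted p = 0.741). Without it they were 1.78 (adjusted p = 0.0916) and 2.07 (adjusted p = 0.0347). Without Tfam KO replicate 2 the value in Tfam KO was -1.16 (adjusted p = 0.525), so 1 library on either side decided it. In Tfam islets, 3 of 14 libraries were above 3 CPM (control females 5.86 and 3.94, and a KO male 21.7), and the others lay between 0.236 and 2.03. In Clec16a islets Krt19 reached 8.49 CPM in controls on HFD (0.747 to 8.49) and 2.25 in KO on HFD (0.271 to 2.25), a log2 change of -1.81 (SE 0.74, adjusted p = 0.137). On RFD the change was 0.88 (SE 0.82, adjusted p = 0.573).

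Cftr, the chloride channel of duct cells (ENSMUSG00000041301, chromosome 6, 18170687 to 18322768, plus strand), was the rarest of the 8 genes. It had 0 to 53 counts per library, and at most 0.7298 CPM, in any library. It did not pass the filter on low counts in the Clec16a islets. In liver it was at 0 to 0.262 CPM in controls (0 to 14 counts), 0.212 to 0.315 in Mfn DKO and 0.195 to 0.536 in Tfam KO. The log2 changes were 0.99 (SE 0.60, adjusted p = 0.304) and 1.37 (SE 0.62, adjusted p = 0.113). In Tfam KO livers Cftr was called with limma on the authors' CPM (1.25, adjusted p = 0.0204) and TPM (0.83, adjusted p = 0.0189). On those scales 39.4% and 50.9% of all genes were called higher. In control Clec16a islets all 6 libraries on HFD (1 to 23 counts) lay by CPM above all 4 on RFD (0 to 2 counts). A count of 0 allows up to 3 counts, and the RFD libraries did not exceed that floor, so a difference was not resolved at this depth. That comparison called 0.0406% of all genes (0.0058% higher, 0.0348% lower).

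Spp1 in Clec16a KO islets had the largest fitted change among the calls. Spp1 encodes osteopontin, a secreted phosphoprotein of ducts, macrophages and activated stromal cells. On RFD it was at 16.9, 25.6, 15.6 and 18.2 CPM in controls and at 76.2, 88.8, 35.5 and 249 in KO islets. All 4 KO libraries lay above all controls, and the log2 change was 2.55 (SE 0.45, adjusted p = 0.0037), from 19.1 ± 4.51 to 112 ± 93.9 CPM (SD, n = 4 each). On HFD it was at 30.3, 16.8, 27.7, 21.2, 15.6 and 25.8 CPM in controls and at 72.2, 108, 96.1, 27.6 and 85.3 in KO islets. Here 4 of 5 KO libraries lay above all controls, and the log2 change was 1.77 (SE 0.37, adjusted p = 0.0054). The library at 27.6 CPM is replicate 4, whose stress genes were at control level, and without it the change was 1.99 (adjusted p = 0.00033). Spp1 was called on both diets and the other 6 genes tested on neither, against 7.52% of all genes on RFD (3.99% higher, 3.54% lower) and 9.57% on HFD (5.62% higher, 3.95% lower).

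The promoter of Spp1 is printed because that gene had the highest fitted change. The first RefSeq window lies on chr5:104434861-104435110 (plus strand, GRCm38.p6), just before the annotated gene ENSMUSG00000029304 on chromosome 5 (104435118 to 104441050). Capitals mark TATAAA, from -211 to -206 counted back from the RefSeq start, and the CCAAT box on the reverse strand (ATTGG), from -46 to -42.
Spp1: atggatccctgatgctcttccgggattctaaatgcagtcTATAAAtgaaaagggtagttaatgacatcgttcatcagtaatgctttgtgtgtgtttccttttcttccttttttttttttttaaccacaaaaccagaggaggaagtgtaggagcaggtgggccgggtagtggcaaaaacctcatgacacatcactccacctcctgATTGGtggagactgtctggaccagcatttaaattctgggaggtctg
The other 7 motifs searched had no match in it. TATAAA is held by 12.4% of all promoter windows and a CCAAT box by 33.8%. A second RefSeq window of Spp1 (chr5:104435942-104436191) lies in exons of Gm42793, a gene that overlaps Spp1 on the same strand, and is not printed.

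Spp1 was higher in KO than in control within both sequencing lanes, which the file names give. On RFD the KO and control means were 120.3 and 21.3 CPM in lane 7 (3 and 2 libraries) and 88.8 and 16.9 in lane 8 (1 and 2). On HFD they were 78.8 and 24.9 CPM in lane 7 (2 and 3) and 77.1 and 20.9 in lane 8 (3 and 3). Markers of endothelial cells moved with Spp1. Of 9 such genes, 7 were called higher in KO on RFD and 8 on HFD, and none was at 0 in any library. Their summed level was 735 to 825 CPM in KO and 436 to 459 in control on RFD. On HFD it was 767 to 863 CPM in 4 KO libraries, 459 in KO replicate 4 and 406 to 522 in control, so the KO library low in Spp1 was also low in endothelial markers. With the endothelial score as a covariate the log2 change of Spp1 was 0.53 (adjusted p = 0.998) on RFD and 0.06 (adjusted p = 0.999) on HFD, and no gene was called. Genotype and endothelial score cannot be told apart in these islets. Stellate and fibroblast markers were called higher in 2 of 10 (RFD) and 5 of 10 (HFD). Of 10 macrophage markers tested none was higher and 1 was lower on each diet. No acinar marker of 14 was called on either diet. Of 15 stress response genes, 12 rose on RFD and 11 on HFD, and 14 and 15 without KO HFD replicate 4. The part of these cells and of the stress response in the Spp1 change was not tested beyond that covariate.

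**Figure D3:**
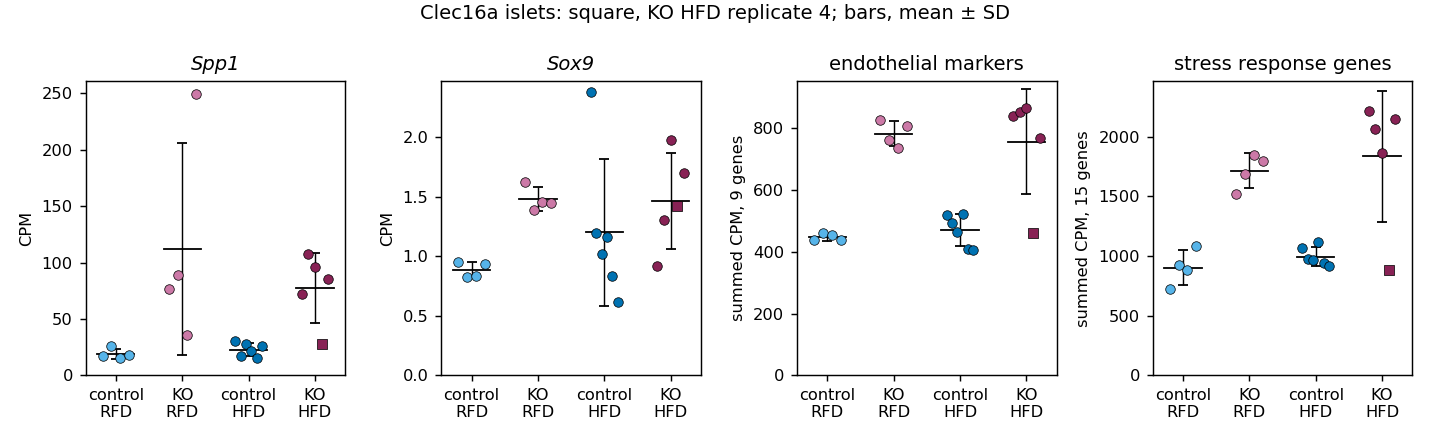
TMM-scaled CPM of Spp1 and Sox9, and summed CPM of 9 endothelial and 15 stress response genes, in Clec16a islets by genotype and diet, 1 point per library with mean and SD; the square is KO HFD replicate 4. Spp1, the endothelial sum and the stress sum are all higher in KO except in that library, where Spp1 is at 27.6 CPM.

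In Tfam islets Krt7 rose and Epcam fell, both by small amounts. These were 2 of 8 genes called, against 20.9% of the 19752 genes tested (11.6% higher, 9.29% lower), so their share is near the background. Krt7, a type II keratin that pairs with Krt19 in ducts (ENSMUSG00000023039, chromosome 15, 101411043 to 101430313, plus strand, GRCm38), was at 209.95, 205, 275, 257 and 205 CPM in control females and 227, 246 and 238 in control males. It was at 276, 297, 295 and 277 CPM in KO females and 303 and 336 in KO males. All 6 KO libraries lay above all 8 controls, and the log2 change was 0.35 (SE 0.07, adjusted p = 0.0029), from 233 ± 25.9 to 297 ± 21.8 CPM. Its overlapping antisense gene Gm671 had 18 to 75 counts in islet libraries, against 11572 or more for Krt7 in Tfam islets. Whether counting used strand is not given in the sources used here.

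Epcam, an adhesion molecule of epithelial and islet cells (ENSMUSG00000045394, chromosome 17, 87635979 to 87651129, plus strand), was at 192, 182, 204, 258 and 179 CPM in control females and 157, 194 and 191 in control males. It was at 149, 158, 165 and 157 CPM in KO females and 147 and 154 in KO males. Of the 6 KO libraries, 4 lay below all controls, and the log2 change was -0.33 (SE 0.08, adjusted p = 0.0074). That call depends on the scale. With limma on log2 of the authors' CPM plus 0.1 it was -0.12 (adjusted p = 0.170), and on the authors' TPM it was 0.07 (adjusted p = 0.309). The median over all genes tested moved to 0.19 and 0.36 on those scales, from -0.01 with TMM. Relative to that median, Epcam was at -0.33 with TMM, -0.31 with CPM and -0.29 with TPM, and Krt7 at 0.36, 0.37 and 0.39. Over all genes, 2285 higher and 1834 lower calls with TMM became 6393 and 593 with CPM and 10092 and 278 with TPM. Beta-cell markers, which take up much of an islet library, were called lower in 10 of 10 (median log2 change -0.77) in the TMM fit, in 8 with CPM and in 4 with TPM, with none higher.

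The same scales moved the median of all genes to 0.21 and 0.30 in Mfn DKO livers and to 0.41 and 0.59 in Tfam KO livers, without ending a call of Krt8 or Krt18. Relative to the median, Krt18 in Tfam KO livers was at 1.29 with TMM, 1.14 with CPM and 1.16 with TPM. Calls in Tfam KO livers split into 3073 higher and 1919 lower with TMM, 6700 and 1223 with CPM, and 8658 and 926 with TPM. In Mfn DKO livers they split into 891 and 790, 1611 and 393, and 2386 and 303. In Clec16a islets on HFD the split went from 970 and 682 to 1643 and 378 and to 1824 and 221, and on RFD from 688 and 610 to 699 and 506 and to 420 and 290. Spp1 stayed called on both diets with either scale.

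The other 6 genes did not pass in Tfam islets. Spp1 was at 12.6 to 52.3 CPM in control and 9.36 to 38.2 in KO islets (log2 change -0.30, SE 0.36, adjusted p = 0.618), and its 2 highest libraries, control females at 43.9 and 52.3 CPM, were also the control libraries high in Krt19. Krt8 (-0.12, adjusted p = 0.415), Krt18 (-0.17, adjusted p = 0.247), Sox9 (0.22, adjusted p = 0.550), Krt19 (0.86, adjusted p = 0.631) and Cftr (-0.18, adjusted p = 0.800) had overlapping groups. The difference of the genotype effect between males and females was called by edgeR for none of the 8, nor for any gene (0% of all genes; 1230 genes at an unadjusted p under 0.05, and 34 called by the DESeq2 Wald test). Krt19 (log2 4.88, unadjusted p = 0.0043, adjusted p = 0.659) and Spp1 (1.70, unadjusted p = 0.0126, adjusted p = 0.691) came nearest, and both rest on 2 KO males. Those 2 males had acinar marker sums of 20983 and 4194 CPM, against 1208 to 11374 in control islets, and the male with 21.7 CPM of Krt19 was the one with 4194.

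**Figure D4:**
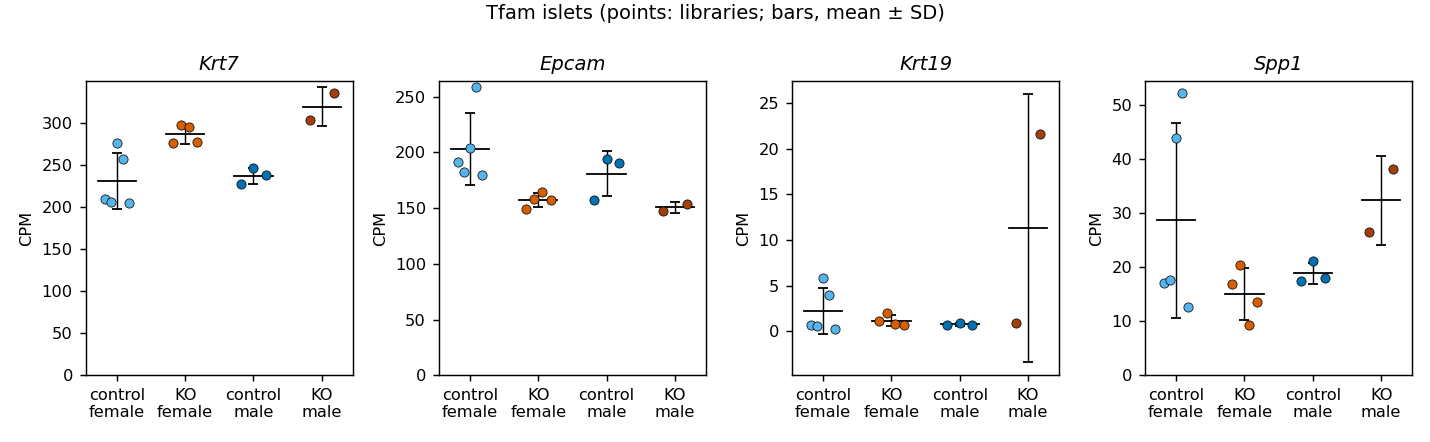
TMM-scaled CPM of Krt7, Epcam, Krt19 and Spp1 in Tfam islets by sex and genotype, 1 point per library with mean and SD. All 6 KO points for Krt7 are at 276 CPM or more and all 8 control points at 275 or less, whereas the KO male mean of Krt19 rests on 1 library at 21.7 CPM.

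Between HFD and RFD, edgeR called none of the 7 genes tested in Clec16a control islets (0.0406% of all genes called) or KO islets (0.0116%, all lower). Neither did the genotype effect differ between diets for any gene by edgeR (0% called; 406 genes at an unadjusted p under 0.05, and 20 called by the DESeq2 Wald test). The interaction for Spp1 was -0.78 on the log2 scale (SE 0.57, unadjusted p = 0.181, adjusted p = 0.99991). Krt8, Krt18, Krt7 and Epcam, the abundant set, had fitted changes between -0.26 and 0.13 in the KO on either diet, and none passed.

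**Figure D5:**
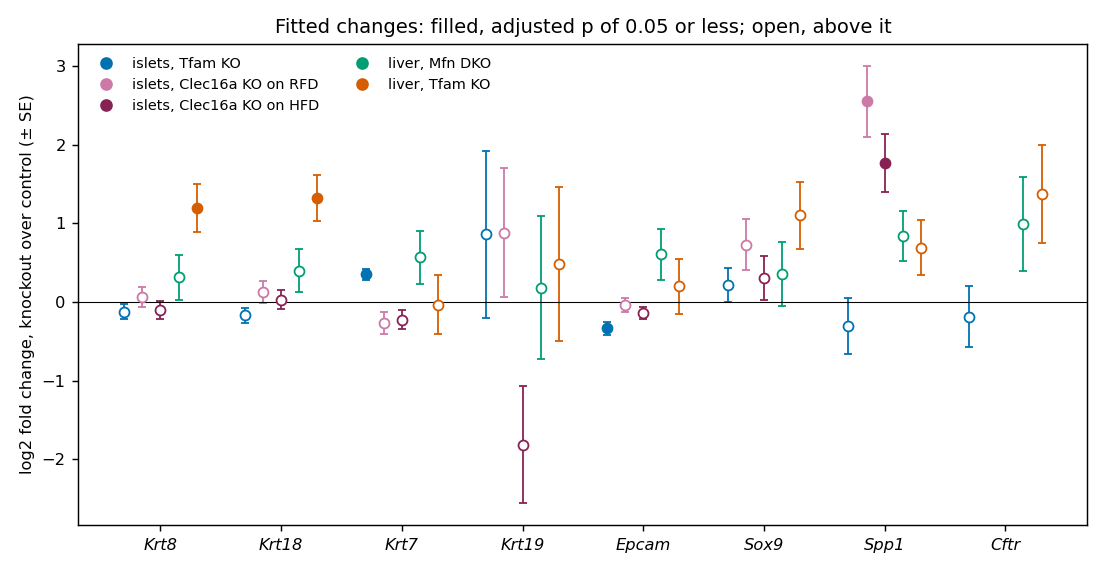
Fitted log2 fold change of knockout over control for each gene in the 5 knockout comparisons, with the standard error as bars; filled points have an adjusted p of 0.05 or less. Filled points are Krt8 and Krt18 in Tfam KO liver, Krt7 and Epcam in Tfam KO islets and Spp1 in Clec16a KO islets on both diets, with Spp1 on RFD the highest at 2.55.

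A list of 21 other duct and biliary genes was examined beside them. This list and those below were chosen with earlier results of these data known, so their counts are descriptions and no independent check. In Tfam KO livers 7 of 19 tested were called higher and 0 lower (median log2 change 0.85), against 18.1% of all genes higher. They included Krt23, a type I keratin (2.90, SE 0.50, adjusted p = 0.0022), Bicc1, an RNA-binding protein (2.74, SE 0.56, adjusted p = 0.0045), and Sox4, a transcription factor that acts with Sox9 in duct formation (3.75, SE 0.78, adjusted p = 0.0048). Krt23 was at 21.0, 46.6 and 6.70 CPM in Tfam KO livers, at 9.23, 22.1, 23.2 and 14.2 in Mfn DKO livers and at 1.74 to 6.41 in controls, so all 7 knockout livers lay above all controls. Sox4 was at 5.66, 160.4 and 5.35 CPM in Tfam KO and 2.71 to 5.10 in control livers, and Bicc1 at 5.91, 66.9 and 6.65 against 3.24 to 4.74. Replicate 2 carried those 2 changes in size. Without it, 2 of 19 duct genes were called higher (median 0.19), Krt23 (2.08, adjusted p = 0.0140) and Bicc1 (0.67, adjusted p = 0.0303), against 8.51% of all genes, and Sox4 was at 0.40 (adjusted p = 0.315). In Mfn DKO livers Krt23 was called (2.38, SE 0.47, adjusted p = 0.0099) and the other 18 were not. The count there was 4 in the fit without Tfam KO replicate 2 (9.56% of all genes higher) and 4 in the fit without control replicate 4 (3.93%). With limma on the authors' CPM and TPM, 5 and 11 duct genes were called higher in Tfam KO livers and 1 and 2 in Mfn DKO livers, with none lower. All genes were called higher at 39.4% and 50.9% in Tfam KO and at 9.46% and 14% in Mfn DKO livers on these scales, so 3 of these 4 duct gene shares were below the background and 1 was near it.

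Of 16 Notch and YAP pathway genes, 6 were called higher in Tfam KO livers and 0 lower (median log2 change 0.63), against 18.1% of all genes higher. The 3 with the smallest p were the YAP-associated genes Ajuba (2.16), Ankrd1 (3.89) and Ccn2 (2.91). Ankrd1 was at 0.357, 6.62 and 0.493 CPM against 0.0814 to 0.316 in controls, Ajuba at 6.94 to 49.7 against 4.28 to 6.96, and Ccn2 at 5.09 to 68.9 against 2.46 to 5.22. Their highest values were all in replicate 2, and without it 2 of 16 were called (8.51% of all genes higher), with a median of 0.28. These were Ajuba (1.21, adjusted p = 0.0185) and Ccn2 (0.95, adjusted p = 0.0428). With limma on the authors' CPM and TPM the count of all 3 livers was 9 and 10, against 39.4% and 50.9% of all genes. In Mfn DKO livers 1 of 16 was called, the Notch target Heyl (0.92, SE 0.22, adjusted p = 0.0218), and 2 of 16 with either of those scales. Without Tfam KO replicate 2 the count was 3 higher and 1 lower, against 9.56% and 9.95% of all genes. In Clec16a KO islets 4 of 15 were higher on RFD and 4 on HFD, and 6 and 8 without KO HFD replicate 4. The shares over all genes were 3.99% and 5.62%, and 6.27% and 10.5% without that library. Endothelial markers moved with them (7 and 8 of 9 higher), and with the endothelial score as a covariate no gene was called on either diet (589 and 644 genes at an unadjusted p under 0.05). Genotype and that score cannot be told apart here either. With limma on CPM and TPM the count was 2 and 0 on RFD (4.05% and 2.43% of all genes) and 6 and 7 on HFD (9.52% and 10.6%). The 4 genes called by edgeR on RFD included Hes1, a Notch target (0.69), Wwtr1, which encodes the YAP partner TAZ (0.69), and the ligand gene Jag2 (0.44). The 4 called by edgeR on HFD included Jag2 (0.39) and the Notch targets Hey1 (0.94) and Nrarp (0.76). In Tfam islets Jag1 rose (0.87) and Jag2 fell (-0.57), and the other 14 did not pass. Jag1 stayed called with limma on the authors' CPM (1.07) and TPM (1.22), while Jag2 was at -0.35 (adjusted p = 0.0374) and -0.17 (adjusted p = 0.365). On those scales 5 and 8 of 16 were called higher, and 1 and 0 lower, near the same shares over all genes (32.4% and 51.1% higher).

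In Clec16a KO islets some genes of epithelial junctions were lower in the edgeR fit. With the endothelial score as a covariate no gene was called on either diet, and genotype and that score cannot be told apart for these genes. Of 18 duct genes tested, 2 were lower on RFD and 3 on HFD, with none higher (medians -0.15 and -0.06), against 3.54% and 3.95% of all genes lower. Cldn4, a tight junction claudin, fell by 1.02 and 0.76 on the log2 scale, and Cdh1, which encodes E-cadherin, fell by 0.36 and 0.39. Of 11 desmosome and keratin partner genes 3 were lower on RFD and 4 on HFD. Dsp, which encodes desmoplakin, the linker of keratin filaments to desmosomes, was at 53.2 to 67.03 CPM in control and 30.4 to 44.9 in KO islets on RFD (log2 change -0.61, adjusted p = 0.0124). On HFD it was at 63.2 to 73.9 and 35.7 to 61.4 CPM (-0.61, adjusted p = 0.0037). These lower counts shrank on other scales, as did the lower calls over all genes. With limma on the authors' CPM, 2 of the 11 partner genes were lower on each diet, and with TPM none. Dsp on TPM had an adjusted p of 0.0556 on RFD and 0.0508 on HFD. Over all genes, 2.93% with CPM and 1.68% with TPM were lower on RFD, and 2.19% and 1.28% on HFD. Of the 18 duct genes on HFD, TPM called 1 higher and 1 lower. Cldn4 stayed called on both scales and diets (-0.99 and -0.98 on RFD, -0.75 and -0.67 on HFD). Cdh1 did not (adjusted p 0.0607 to 0.219), and the median of the duct genes on HFD turned to 0.0073 with CPM and 0.078 with TPM.

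In Tfam islets the pattern was mixed: 2 of 19 duct genes rose and 3 fell, against 11.6% of all genes higher and 9.29% lower. Dcdc2a, a microtubule-associated gene of cholangiocyte cilia, rose most (log2 change 1.82, SE 0.17, adjusted p = 1.16e-06), from 17.03 to 38.8 CPM in controls to 77.3 to 95.2 in KO. Cldn4 rose there by 0.38 (adjusted p = 0.00596), whereas Bicc1 fell by 0.43 (adjusted p = 0.00057). With limma on the authors' CPM and TPM, Dcdc2a (2.07 and 2.24) and Cldn4 (0.60 and 0.78) were called higher, and Bicc1 was at -0.23 (adjusted p = 0.0410) and -0.044 (adjusted p = 0.745). On those scales 7 and 9 of 19 duct genes were called higher, and 1 and 0 lower, which is near the 32.4% and 51.1% of all genes called higher. Of 10 partner genes tested in Tfam islets, edgeR called 4 higher and 1 lower. Limma on CPM and TPM called 5 and 7 of them higher and 0 lower. In Tfam KO livers Dsp (0.99) and Plec, which encodes the keratin linker plectin (0.64), were called, 2 of 10 tested partner genes, and none of the 10 was called without replicate 2. None of 10 passed in Mfn DKO livers. With limma on the authors' CPM and TPM, 6 of 10 were called in Tfam KO livers on each scale, and 3 and 6 in Mfn DKO livers, with none lower. The shares over all genes were 39.4% and 50.9%, and 9.46% and 14%.

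The genes with the most similar levels over the libraries of an experiment, by Pearson r of log2 CPM, differed between the 8 genes. In the 13 livers Epcam was closest to Prom1 (0.93), Rab25 and Sox17, Krt7 to Cldn7 (0.93), Krt19 to Ckmt1 (0.95), Spp1 to Scara3 (0.96), Krt8 to Pdss1 (0.97) and Krt18 to Sema3b (0.98). In the 14 Tfam islets Krt19 was closest to Gsta4 (0.93), Lcn2 and Mmp7, and Spp1 to Cp, Clu and Fstl1 (0.91 each). In the 19 Clec16a islets Spp1 was closest to Myl9 (0.94), Tnfrsf23 (0.93) and Dach2 (0.92). The libraries of an experiment share tissue and design, and these values describe that set only. In liver, Epcam and Krt7 had r = 0.85 with each other and Epcam and Spp1 0.82, whereas Krt8 and Spp1 had 0.34.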

How the data were processed

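RNA was measured by paired-end sequencing in 46 mouse libraries. Per the file headers, each deposited table holds raw counts, TPM and CPM for 55487 genes. The deposited counts are whole numbers and were tested as they stood. The authors' CPM equals the count over the library's total, and the authors' TPM was used to compare genes within a tissue. The submitters' processing notes name STAR 2.6.1b, RSEM 1.3.1, featureCounts, DESeq2, FastQC, MultiQC and GRCm38, without role or order. Of the identifiers, 55141 were found in GENCODE M21, which gave positions.

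The Tfam islets, Clec16a islets and livers were fitted separately with edgeR 4.0.16 under R 4.3.3 (TMM, filterByExpr, quasi-likelihood F-test, 1 mean per group). Sex was an additive term for Tfam KO against control islets. Standard errors are the absolute log2 change divided by the root of F. In all, 10 comparisons were made. CPM in the text is TMM-scaled. Intervals for single counts cover counting error only, since no molecular identifiers were used.

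Alternatives were DESeq2 1.42.0 (size factors, Wald test), no filter, each library left out, the replicate block, acinar score, lane or Xist as a covariate, no sex term and fits of 2 groups alone. Added after seeing the data were fits without Tfam KO liver replicate 2 or Clec16a KO HFD replicate 4 in comparisons that share their spread, the endothelial score as a covariate, limma 3.58.1 on log2 of the authors' CPM or TPM plus 0.1 (members and lists), and values by Xist class. The fits were tested on simulated data. Named beside the 8 genes were the targets, Xist, at most 3 genes per list and comparison (smallest adjusted p) and the 3 genes closest by correlation. Members and lists were chosen with earlier results of these data known. No libraries were duplicates by a chi-square test of their counts. Replicate numbers did not pair libraries. Promoters of 6 of the 8 genes were matched in a RefSeq table.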

Additional observations from a re-analysis of the deposited data

Results flagged for a closer look

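In 5 of 64 sets of 4 to 10 libraries tested (1 gene in 1 group), the most extreme library stood far from the others of its group by Dixon's criterion, which chance meets in about 1 of 20 sets. In control islets on HFD from the Clec16a experiment, Sox9 was at 2.38 CPM in replicate 1 (next highest 1.19) and Krt19 at 8.49 CPM in replicate 2 (next 3.45). In control islets on RFD, Cftr was at 0 counts in replicate 4, where a count of 0 allows up to 3, and the next lowest library was at 0.0382 CPM. In control liver replicate 4, Epcam was at 4.07 CPM (next 2.30) and Krt19 at 21.2 CPM (next 2.06).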

How the results depend on the processing

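Krt7 in Tfam islets was called in 22 of 22 alternatives (adjusted p 6.10e-07 to 0.0128), Epcam in 20 of 22 (0.000388 to 0.309), Spp1 in 18 of 19 (1.05e-05 to 0.998) on RFD and 20 of 21 (0.000327 to 0.999) on HFD, Krt8 in Tfam KO liver in 15 of 17 (0.000635 to 0.138) and Krt18 in 16 of 17 (0.000251 to 0.0724). Replicate numbers did not pair libraries: the correlation of same-numbered residuals had a median of 0.07 in Tfam islets, -0.02 in Clec16a islets and 0.09 in livers. With the number as a replicate block, 0 of the 8 genes were called in Tfam KO liver (Krt8 0.995, adjusted p = 0.0941, and Krt18 1.10, adjusted p = 0.0724). Genes called under the block were 395 in Tfam KO liver, 169 in Mfn DKO liver, 6 between those knockouts, 975 in Clec16a KO on HFD and 3 by diet in control islets. Block values with the other sign were 0.0091 (Cftr, Tfam islets), 0.029 (Krt18, by sex), 0.049 (Sox9) and -0.065 (Krt7) for diet in KO islets, 0.37 (Krt7, Tfam KO liver) and -0.055 (Krt19, Tfam KO against Mfn DKO).

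On the authors' CPM 6986 genes and 1 of the 8 were called in Tfam islets and 7923 genes in Tfam KO liver. On TPM these were 10370 genes and 4 of the 8, and 9584 genes and 5 of the 8, with 710 genes in Clec16a KO on RFD and 2689 in Mfn DKO liver. The 5 in Tfam KO liver were Krt8, Krt18, Cftr, Sox9 (adjusted p = 0.0418) and Spp1 (adjusted p = 0.0409). Signs turned on CPM for Krt8 (0.095), Krt18 (0.057) and Cftr (0.034) in Tfam islets, Krt8 (0.029) on HFD and Krt7 (0.44) in Tfam KO liver. On TPM they turned for Epcam (0.068), Krt8 (0.28), Krt18 (0.24), Spp1 (0.16) and Cftr (0.11) in Tfam islets, Epcam on RFD (0.0062) and HFD (0.053), Krt8 on HFD (0.10) and Krt7 (0.54) in Tfam KO liver. The DESeq2 Wald test called 34 genes by sex, 20 by genotype and diet, 54 and 42 by diet in control and KO islets, 2870 in Mfn DKO liver and 1087 between the knockouts, and gave 0.0027 for Sox9 by diet in KO islets. Without a filter 30 genes were called by sex and 6 by diet in KO islets. Fits of 2 groups alone called 0 genes by diet in KO islets, 4338 genes and 2 of the 8 in Mfn DKO liver, 3228 genes in Tfam KO liver and 7 between the knockouts. With the endothelial score 0 genes and 0 of the 8 genes were called on either diet, and signs turned for Epcam (0.24) and Krt18 (-0.16) on RFD, and Sox9 (-0.073), Epcam (0.085) and Krt18 (-0.22) on HFD. The acinar score gave 4 and 0 genes by diet in control and KO islets, 0.00074 for Epcam on RFD, -0.043 (Krt8) and -0.11 (Spp1) for diet in control and -0.0025 (Krt7) in KO islets. Lane as a factor gave 3 genes by diet in control islets and 0.086 for Sox9 in KO. With Xist, 1 of the 8 was called in Mfn DKO liver, Epcam was at -0.045 in Tfam KO liver and Krt19 at -0.73 between the knockouts. The cause of these changes was not tested.

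Leaving out 1 library at a time, genes called ran from 0 to 1 for the sex difference of the Tfam effect, 523 to 2015 for Clec16a KO on RFD, 786 to 3369 for Clec16a KO on HFD, 3 to 12 for diet in control islets, 0 to 31 for diet in KO islets, 686 to 3379 for Mfn DKO liver, 2504 to 7330 for Tfam KO liver and 24 to 4204 for Tfam KO against Mfn DKO liver. Of the 8 genes, calls ran from 0 to 1 for Mfn DKO liver, 1 to 4 for Tfam KO liver and 0 to 2 for Tfam KO against Mfn DKO liver. Log2 changes that turned sign in some of these fits had the following ranges. For Tfam KO islets they were Krt19 -0.62 to 1.47 and Cftr -0.52 to 0.068. For the sex difference of the Tfam effect they were Krt8 -0.0013 to 0.29 and Krt18 -0.13 to 0.045. For Clec16a KO on RFD they were Epcam -0.084 to 0.014 and Krt8 -0.013 to 0.15. For Clec16a KO on HFD they were Krt18 -0.051 to 0.13. For the diet difference of the Clec16a effect they were Krt7 -0.024 to 0.12 and Krt18 -0.18 to 0.0061. For diet in control islets they were Krt7 -0.082 to 0.034 and Krt8 -0.014 to 0.15. For diet in KO islets they were Sox9 -0.14 to 0.11, Epcam -0.061 to 0.040, Krt7 -0.053 to 0.090, Krt18 -0.048 to 0.13 and Spp1 -0.83 to 0.21. For Mfn DKO liver they were Krt19 -0.065 to 1.78. For Tfam KO liver they were Sox9 -0.091 to 1.47, Epcam -0.052 to 0.55, Krt7 -0.30 to 0.21 and Krt19 -1.16 to 2.07. For Tfam KO against Mfn DKO liver they were Sox9 -0.45 to 1.11, Krt19 -1.34 to 0.77, Spp1 -0.69 to 0.25 and Cftr -0.14 to 0.66. A group left with 1 library was assumed to vary like the others.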
